A study of Drosophila melanogaster with 15 samples.

Results

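The mitochondrial ribosomal proteins of Drosophila melanogaster are taken here as all entries of the expression table whose symbol starts with mRpL or mRpS followed by digits. The rule found 73 of 12133 entries, 26 of the small subunit (mRpS) and 47 of the large subunit (mRpL), and 73 genes of such names stand in the Ensembl 115 annotation of BDGP6.54. They are spread over the chromosomes, with 12 on 2L, 12 on 2R, 17 on 3L, 21 on 3R and 11 on X.

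Mitochondria keep a ribosome of their own, which makes the few proteins that mitochondrial DNA encodes, all of them core parts of the respiratory chain and the ATP synthase. Its RNAs come from mitochondrial DNA, but its proteins are encoded in the nucleus, made in the cytosol and imported. The small subunit reads the messenger RNA and the large subunit joins the amino acids, and both combine proteins inherited from the bacterial ancestor with others that are found only in mitochondria. The midgut is the part of the larval gut that digests food and absorbs nutrients.

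Midguts were dissected from w1118 larvae, a white-eyed laboratory strain, and their polyadenylated RNA was sequenced. All larvae were raised on a yeast-only diet at 25 °C. The 3 groups of 5 biological replicates were early L2 (2 days after egg laying, 60 midguts pooled per replicate), late L2 (3 days, 30 midguts) and early L3 (4 days, 10 midguts). Age, stage and the number of pooled midguts changed together and cannot be told apart. All animals were of 1 strain.

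Levels are given in CPM, reads of an entry scaled to a common library total, and the libraries held 23981806 to 33902298 reads. Entries that reached 0.5 CPM in 1 library or more, 9787 in all, were compared in 1 limma fit on log2(CPM + 0.5), and all 73 members passed this filter. An entry rose or fell when 2 conditions were met: a Benjamini-Hochberg adjusted p, taken over all 9787 entries, below 0.05, and a log2 fold change of 0.5 or more in either direction. Midgut markers were high in every library, with a summed level of 20301 to 34792 CPM over 11 genes. Over the 3 stages in order, summed levels of the 5 tracheal markers were 51.2 to 105, 68.7 to 155 and 29.1 to 46.7 CPM, and those of the 8 muscle markers 5331 to 7917, 4624 to 5722 and 4343 to 5095 CPM. The 2 fat body markers in the table reached 0 to 0.042, 0 to 114 and 0 to 113 CPM. The 4 hemocyte markers summed to 3.45 to 7.14 CPM over all libraries, and the 1 salivary gland and 2 Malpighian tubule markers to under 1 CPM. The part of these cell types in the results was not tested. On the first principal component, which held 59.1% of the variance, late L2 replicate 4 lay at -5.63 (the others of its group at -24.58 to -16.62) and early L3 replicate 1 at 31.61 (the others at 45.12 to 59.4).

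Summed over all members, the mitochondrial ribosomal proteins stood at 3686, 3175, 3472, 3023 and 3260 CPM in the early L2 libraries. The late L2 libraries held 3780, 3874, 3229, 3094 and 3443 CPM, and the early L3 libraries held 2155, 1671, 2155, 1864 and 2173 CPM. Every early L3 library therefore lay below every L2 library, whereas the early and late L2 libraries overlapped. The means were 3323 ± 260 CPM, 3484 ± 339 CPM and 2003 ± 226 CPM (SD, n = 5). Both subunits followed this course. The small subunit sum was 1282 ± 103, 1351 ± 129 and 794 ± 89 CPM, and the large subunit sum was 2042 ± 157, 2134 ± 210 and 1209 ± 137 CPM (SD, n = 5). In bulk tissue, fewer cells of a type and less RNA per cell cannot be told apart.

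**Figure D1:**
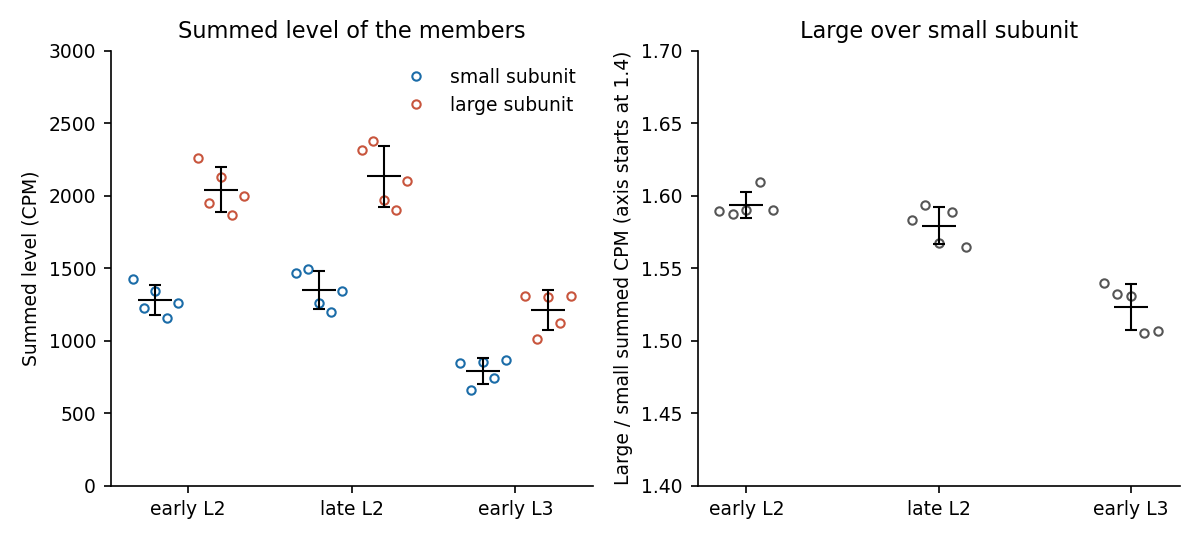
Left, summed level in CPM of the 26 small subunit members (blue) and the 47 large subunit members (red) in each library of the 3 stages; right, the large subunit sum divided by the small subunit sum, on an axis that starts at 1.4. Points are libraries and bars are the mean ± SD of 5 libraries; both sums of early L3 lie below all L2 libraries, and the ratio is 1.51 to 1.54 in early L3 against 1.56 to 1.61 in L2.

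During the second instar, from early to late L2, none of the 73 members passed the test, beside 9.89% of all entries (3.38% higher and 6.51% lower). For none of them did the libraries of these stages separate, whereas 9.73% of all entries separated upward and 8.68% downward. The log2 fold changes ran from -0.07 to 0.27, with a median of 0.06 beside 0.01 over all entries, and 60 members lay above 0. The small subunit had a median of 0.05 and the large subunit one of 0.06. Single libraries moved this small median: over all members it was 0.11 without early L2 replicate 1, 0.02 without early L2 replicate 4, and 0.03, 0.03, 0.09 and 0.11 without late L2 replicates 1, 2, 3 and 4. Standard errors were 0.061 to 0.149 with a median of 0.095. In this limma fit 5 members had an unadjusted p under 0.05 (mRpL33, mRpL22, mRpS10, mRpL10 and mRpS33, all with positive changes), a count that ran from 1 to 10 with a library left out. The edgeR quasi-likelihood test on whole reads also called 0 members with 12 at an unadjusted p under 0.05, and DESeq2 called 0 with 8. Of all 9787 entries edgeR called 400 higher and 624 lower, and DESeq2 called 396 higher and 710 lower. Shares of all entries at that unadjusted p were not counted for these tests. The member with the smallest p was mRpL33, with a log2 fold change of 0.27 ± 0.09 (SE) and an adjusted p of 0.035, under the minimum fold. It was the only member with an adjusted p below 0.05 in the limma fit. Of all entries, 13.8% were higher and 12.8% lower at that adjusted p, and all of these also had an unadjusted p under 0.05.

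Into the third instar, from late L2 to early L3, 68 of the 73 members fell and none rose, beside 18.7% of all entries lower and 6.45% higher. The fall took in 24 of 26 small subunit members and 44 of 47 large subunit members. With no minimum fold, all 73 were lower at an adjusted p below 0.05 (as were 37.0% of all entries), and for all 73 every early L3 library lay below every late L2 library (28.3% of all entries). The exact 2-sided permutation p was 0.00794 for each member, the smallest that 5 libraries against 5 can give. The median log2 fold change was -0.86, a level ratio of 0.549, against -0.11 over all entries. By subunit the medians were -0.86 and -0.88, with middle ranges of -0.95 to -0.76 for the small and -0.97 to -0.68 for the large subunit. The members therefore lay close together: 12 were below -1, 39 between -1 and -0.75, 17 between -0.75 and -0.5, and 5 above -0.5. With late L2 replicate 4 and early L3 replicate 1 both left out, 69 members fell, beside 2086 of 9751 entries called lower.

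These values depend on the scaling. The median of all entries was -0.11 in CPM and 0.02 after median-ratio scaling, which sets it near 0 by construction, so a shift of the scale and a fall of many entries cannot be told apart. Of all entries called, 25.7% rose in CPM, 43.3% after median-ratio scaling and 47.7% after quantile normalization. From late L2 to early L3 all members had log2 fold changes under 0 with TMM, median-ratio and quantile scaling. Their median was -0.73 with TMM scaling, -0.72 with median-ratio scaling and -0.68 with quantile normalization, and 60, 59 and 56 members fell. Of all 9787 entries 1316, 1279 and 1150 were called lower under these scalings, beside 1829 in CPM. The edgeR and DESeq2 tests on whole reads each called 60 members, beside 1441 and 1406 entries lower.

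**Figure D2:**
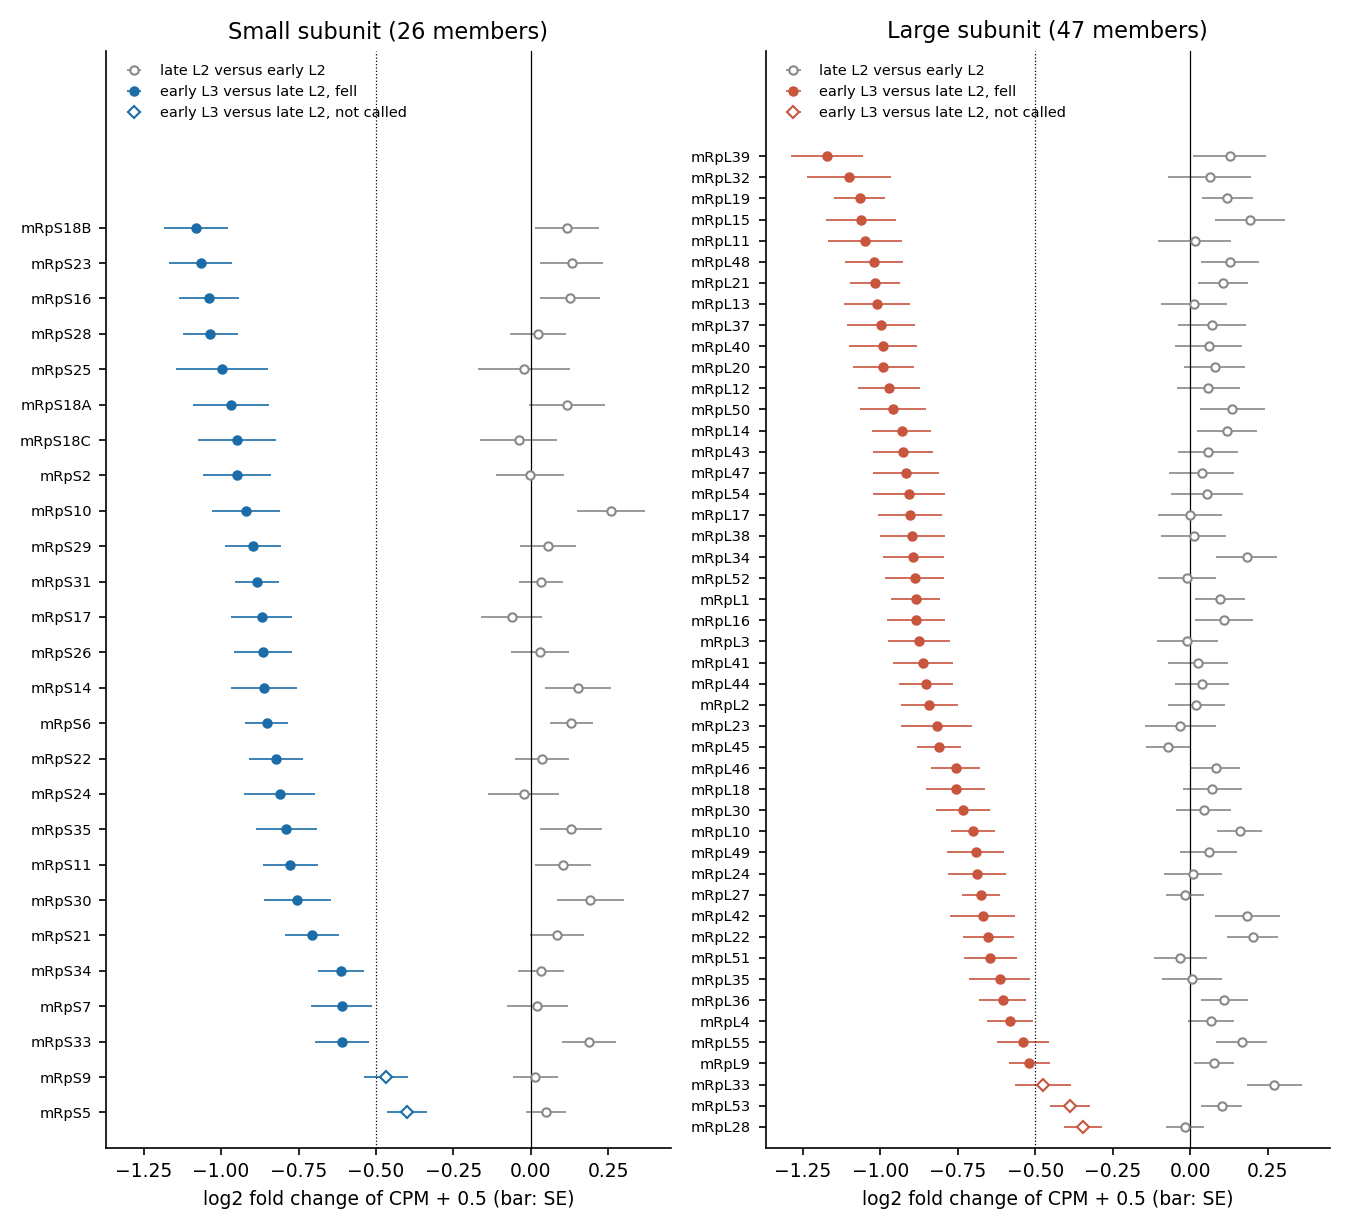
Log2 fold change of CPM + 0.5 (x axis, bars are SE) for each small (left) and large (right) subunit member, ordered by the change into early L3; the dotted line marks -0.5. Open grey circles are late L2 versus early L2 and lie between -0.07 and 0.27, filled points are the 68 members that fell from late L2 to early L3, and open diamonds are the 5 that were not called.

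For 69 members, 24 of the small and 45 of the large subunit, the step into early L3 was more negative than that during L2, by a test of the difference itself. Of all entries, 18.4% were called in this direction and 6.5% in the other. The 4 others were mRpS5, mRpS9, mRpL28 and mRpL53, with differences of -0.45, -0.48, -0.33 and -0.49. With no minimum fold all 73 differed at an adjusted p below 0.05 in the lower direction, beside 26.8% of all entries, and 9.45% of all entries did so in the other. With the minimum fold and TMM, median-ratio or quantile scaling, the test called 68, 65 and 60 members. It called 1420, 1302 and 1163 of all 9787 entries in the lower direction. Over the whole span from early L2 to early L3, 62 members fell, 23 of the small and 39 of the large subunit, and none rose, beside 24.3% of all entries lower and 9.86% higher. For 71 members every early L3 library lay below every early L2 library (32.2% of all entries), the exceptions being mRpS33 and mRpL33. The median over this span was -0.82 beside -0.15 over all entries. With TMM, median-ratio and quantile scaling this median of the members was -0.67, -0.67 and -0.63. Under these scalings 54, 54 and 52 members fell, beside 1797, 1810 and 1664 of all 9787 entries. The members not called over this span in CPM were mRpS5, mRpS9, mRpS33, mRpL9, mRpL22, mRpL28, mRpL33, mRpL36, mRpL42, mRpL53 and mRpL55. Over the same span 5 of the 8 muscle markers fell in CPM, with a median of -0.52. The count was 0 with TMM or median-ratio scaling and 6 with quantile normalization (median -0.58). The part of these markers in the members' values was not tested. These 3 comparisons share libraries, so their counts are not separate evidence.

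The largest fall into early L3 was that of mRpL39, a large subunit protein without a bacterial counterpart (FBgn0036462, chromosome 3L, 14997981 to 14999666 on BDGP6.54, 333 residues). Its level was 61.4, 51.3, 57.9, 48.9 and 55.8 CPM in early L2, 65.0, 69.7, 54.2, 52.5 and 60.2 CPM in late L2, and 31.6, 19.8, 27.8, 24.0 and 30.5 CPM in early L3. The highest early L3 library was far below the lowest L2 library. The log2 fold change into early L3 was -1.17 ± 0.12 (SE, adjusted p = 9.99e-07, limma). A fall of like size was seen for mRpL32, a bacterial-type protein whose maturation by a mitochondrial protease controls ribosome assembly in yeast and mouse (FBgn0039835, chromosome 3R, 31252872 to 31253686). It stood at 40.9, 31.5, 35.3, 28.8 and 32.7 CPM in early L2, at 40.9, 38.6, 29.7, 30.6 and 37.3 CPM in late L2, and at 20.1, 11.7, 17.6, 15.02 and 17.5 CPM in early L3. Early L3 replicate 2 was lowest and no early L3 library reached the L2 range. The log2 fold change was -1.10 ± 0.13 (SE, adjusted p = 5.94e-06, limma).

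Of the other large subunit members with the largest falls, mRpL19 and mRpL15 are both bacterial-type. For mRpL19 the early L2 values were 48.7, 44.0, 46.1, 41.5 and 46.2 CPM, the late L2 values 51.6, 55.3, 44.5, 46.3 and 49.2 CPM, and the early L3 values 25.9, 19.2, 24.6, 21.6 and 25.8 CPM. The L2 groups overlapped and early L3 lay apart, with a log2 fold change of -1.07 ± 0.08 (SE, adjusted p = 2.80e-07, limma). For mRpL15 the values were 54.9, 43.6, 51.3, 44.5 and 45.2 CPM in early L2, 60.1, 64.7, 51.1, 43.6 and 55.6 CPM in late L2, and 30.4, 20.4, 27.3, 25.1 and 27.1 CPM in early L3. Late L2 replicate 4 was the lowest of its group and still above every early L3 library. The log2 fold change was -1.06 ± 0.11 (SE, adjusted p = 1.69e-06, limma).

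In the small subunit the largest falls were those of mRpS18B, one of 3 proteins related to bacterial S18, and mRpS23, a protein found only in mitochondria. The level of mRpS18B was 38.0, 32.3, 32.8, 30.4 and 32.9 CPM in early L2, 40.2, 41.4, 33.9, 29.6 and 36.3 CPM in late L2, and 18.0, 13.6, 18.7, 15.3 and 19.0 CPM in early L3. The stages before and after the molt did not overlap. The log2 fold change was -1.08 ± 0.10 (SE, adjusted p = 8.01e-07, limma). Its relatives mRpS18A and mRpS18C had log2 fold changes of -0.97 ± 0.12 and -0.95 ± 0.13 (SE), and both fell as well. The level of mRpS23 was 27.4, 23.7, 27.6, 21.1 and 25.7 CPM in early L2, 28.2, 31.7, 26.4, 24.0 and 27.5 CPM in late L2, and 14.1, 10.3, 14.3, 11.9 and 14.1 CPM in early L3. Early L3 lay below both L2 stages, with a log2 fold change of -1.07 ± 0.10 (SE, adjusted p = 7.52e-07, limma).

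Over the whole span from early L2 to early L3, the largest falls added 4 members, mRpL11, mRpL13, mRpS25 and mRpS28. In bacteria L11 forms the base of the stalk that receives the translation factors, and mRpL11 stood at 24.9, 21.6, 22.7, 17.9 and 21.3 CPM in early L2, 23.3, 24.4, 19.6, 20.3 and 21.7 CPM in late L2, and 11.3, 7.57, 12.7, 9.38 and 11.3 CPM in early L3. Its log2 fold change over the span was -1.03 ± 0.12 (SE, adjusted p = 2.09e-06, limma), and early L3 did not overlap the earlier stages. For mRpL13 the values were 49.9, 41.3, 45.0, 39.2 and 41.9 CPM in early L2, 47.9, 49.1, 40.0, 40.8 and 41.3 CPM in late L2, and 26.3, 16.4, 23.0, 20.1 and 22.5 CPM in early L3. Its log2 fold change into early L3 was -1.01 ± 0.11 (SE), again without overlap with the earlier stages.

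Of these, mRpS25 has no bacterial counterpart, whereas mRpS28 is counted here as bacterial-type. The level of mRpS25 was 44.5, 36.7, 45.3, 37.4 and 36.7 CPM in early L2, 44.4, 47.5, 34.2, 31.9 and 40.8 CPM in late L2, and 20.5, 13.4, 24.8, 17.5 and 23.2 CPM in early L3. It had the largest standard error of all members, and its change over the span was -1.02 ± 0.15 (SE, adjusted p = 2.27e-05, limma). Even so, its highest early L3 library was below its lowest L2 library. The level of mRpS28 was 35.3, 29.1, 31.9, 30.0 and 28.7 CPM in early L2, 34.2, 33.9, 30.1, 27.1 and 32.5 CPM in late L2, and 16.2, 12.4, 16.4, 14.1 and 16.8 CPM in early L3. The change over the span was -1.01 ± 0.09 (SE), and the groups before and after the molt did not overlap.

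**Figure D3:**
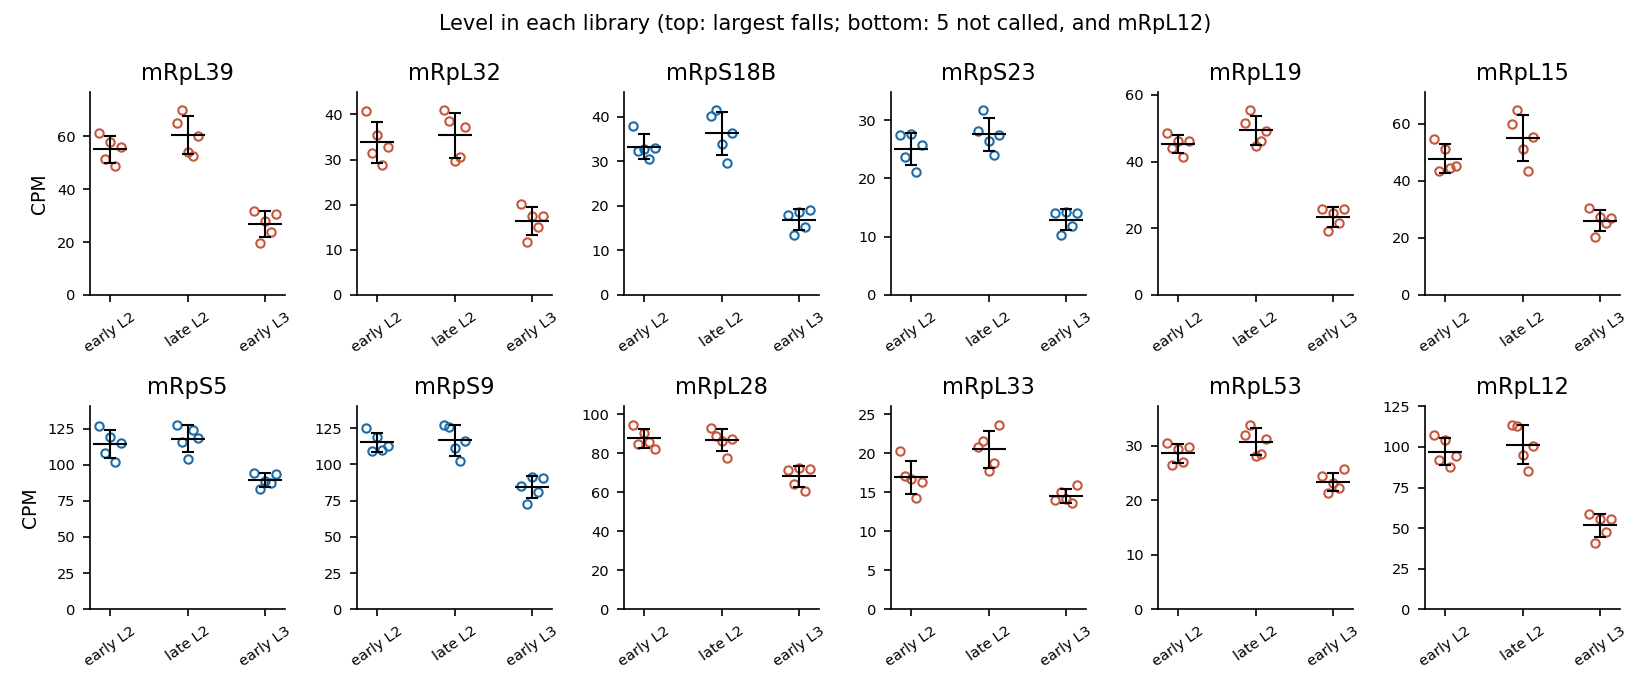
Level in CPM (y axes from 0, a scale for each gene) in each library of the 3 stages, with the mean ± SD of 5 libraries as a bar; top, the 6 members with the largest falls into early L3, bottom, the 5 members that were not called and mRpL12, the member with the highest level per kilobase. In each panel every early L3 library lies below every late L2 library, with a smaller step for mRpS5, mRpS9, mRpL28, mRpL33 and mRpL53.

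The 5 members that missed the minimum fold into early L3 were picked out after their values were seen. In bacteria S5 lines the channel through which the messenger enters and S9 touches the transfer RNA bound to the growing chain. The level of mRpS5 was 127, 108, 119, 102 and 115 CPM in early L2, 128, 116, 104, 124 and 119 CPM in late L2, and 94.3, 82.8, 88.5, 87.3 and 93.5 CPM in early L3. Early L3 lay below L2 without overlap here too, and the log2 fold change was -0.40 ± 0.06 (SE, adjusted p = 8.97e-05, limma). The level of mRpS9 was 125, 109, 119, 109.7 and 113 CPM in early L2, 127, 126, 111, 102 and 116 CPM in late L2, and 85.2, 72.6, 91.1, 81.1 and 90.3 CPM in early L3. Its log2 fold change was -0.47 ± 0.07 (SE, adjusted p = 4.87e-05, limma), and it reached -0.52 and was called without late L2 replicate 4.

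The 3 large subunit members of this kind were mRpL28 and mRpL33, both bacterial-type, and mRpL53, found only in mitochondria. For mRpL28 the values were 94.7, 84.9, 90.5, 85.8 and 82.4 CPM in early L2, 93.1, 88.9, 86.5, 77.8 and 87.3 CPM in late L2, and 71.4, 64.4, 72.4, 60.5 and 72.0 CPM in early L3. This was the smallest change of all members, at -0.35 ± 0.06 (SE, adjusted p = 0.000191, limma). For mRpL53 the values were 30.4, 26.4, 29.3, 27.1 and 29.7 CPM in early L2, 32.01, 33.8, 28.1, 28.5 and 31.2 CPM in late L2, and 24.4, 21.4, 23.1, 22.2 and 25.7 CPM in early L3, a change of -0.39 ± 0.07 (SE). Early L3 stayed below late L2 for both.

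The shortest member is mRpL33, with 64 residues. Its level was 20.2, 17.0, 16.7, 14.2 and 16.3 CPM in early L2, 20.8, 21.5, 17.7, 18.7 and 23.7 CPM in late L2, and 14.03, 15.05, 14.2, 13.6 and 15.9 CPM in early L3. Here early L3 overlapped early L2 but not late L2. The log2 fold change into early L3 was -0.47 ± 0.09 (SE, adjusted p = 0.000363, limma) and passed the minimum fold when replicate 3 (-0.52) or 4 (-0.50) of late L2 or replicate 5 (-0.51) of early L3 was left out. Over the whole span it was -0.20 ± 0.09 (SE, adjusted p = 0.0597, limma), the only member with an adjusted p above 0.05 in CPM. This last value rests on the scaling: it was -0.05 with TMM scaling, -0.06 with median-ratio scaling and 0.05, of opposite sign, with quantile normalization, where 70 and not 72 members had an adjusted p below 0.05. It was -0.14 without early L2 replicate 1, and the adjusted p of the limma fit was 0.0177 without early L2 replicate 4, 0.0488 without late L2 replicate 5 and 0.0465 without early L3 replicate 5. Just past the minimum fold stood mRpL9 at -0.52 and mRpL55 at -0.54.

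Relative to the mean of all members in the same library, these 5 moved up. Their choice by a small fall fixes this direction in advance, so only the size of the shifts is described. On the log2 scale mRpL28 stood 0.99 above that mean in late L2 and 1.47 above it in early L3, and mRpS5 stood at 1.43 and 1.86. For mRpS9 the positions were 1.41 and 1.77, for mRpL53 -0.49 and -0.06, and for mRpL33 -1.07 and -0.72. In the other direction mRpL39, named for the largest fall, went from 0.46 to 0.12. These positions are not per length and describe shifts between stages only.

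Per kilobase of transcript the members covered a narrow range of levels. The median over the 15 libraries was 46.2 CPM per kb for the small subunit and 41.9 for the large subunit, beside 7.17 over all entries with a length. The highest level was 2.63 times the lowest in the small subunit and 5.24 times the lowest in the large subunit. At the top stood mRpL12 with 113 CPM per kb. It corresponds to the bacterial stalk protein, which unlike the other proteins of the bacterial ribosome is present in several copies. Its level was 107, 92.2, 104, 87.4 and 94.5 CPM in early L2, 114, 113, 94.8, 85.4 and 101 CPM in late L2, and 58.5, 40.7, 55.8, 47.5 and 55.6 CPM in early L3. It fell with the rest, by a log2 fold change of -0.97 ± 0.10 (SE, adjusted p = 1.48e-06, limma).

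The next levels per kilobase were 81.4 for mRpS9, 75.4 for mRpS5 and 72.7 for mRpL24, whose bacterial counterpart starts the assembly of the large subunit. The values of mRpL24 were 79.3, 68.6, 79.6, 66.0 and 68.8 CPM in early L2, 78.0, 82.9, 71.4, 61.3 and 72.0 CPM in late L2, and 48.5, 38.8, 51.9, 40.0 and 47.2 CPM in early L3. It fell by a smaller step than the median member, with a log2 fold change of -0.69 ± 0.09 (SE).

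The lowest levels per kilobase in the large subunit were those of mRpL21 (21.6) and mRpL11 (24.5), and in the small subunit those of mRpS23 (30.9) and mRpS31 (32.9). For mRpL21 the values were 44.6, 41.6, 44.4, 40.7 and 39.1 CPM in early L2, 49.0, 51.1, 40.3, 41.9 and 45.0 CPM in late L2, and 23.1, 18.9, 22.5, 21.0 and 25.5 CPM in early L3. For mRpS31 they were 50.7, 48.9, 49.0, 45.4 and 50.5 CPM in early L2, 53.5, 54.5, 49.9, 43.6 and 49.1 CPM in late L2, and 28.6, 23.6, 29.7, 24.9 and 28.0 CPM in early L3. Both fell without overlap, by log2 fold changes of -1.02 ± 0.08 and -0.88 ± 0.07 (SE).

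Across the 73 members, those with a higher level per kilobase tended to have a smaller change into early L3, with Pearson's r = 0.421 and Spearman's rho = 0.441 between log2 level per kb and log2 fold change. This is a description: the members share the same libraries and are not replicates. The level is a mean that includes the early L3 libraries, so a smaller fall itself raises it. How much this adds to the relation was not tested. Transcript length showed no such relation (r = -0.032, rho = 0.014). The level of mRpL12 was the highest and its change was nevertheless near -1, whereas mRpL53 combined a low level with a small change.

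**Figure D4:**
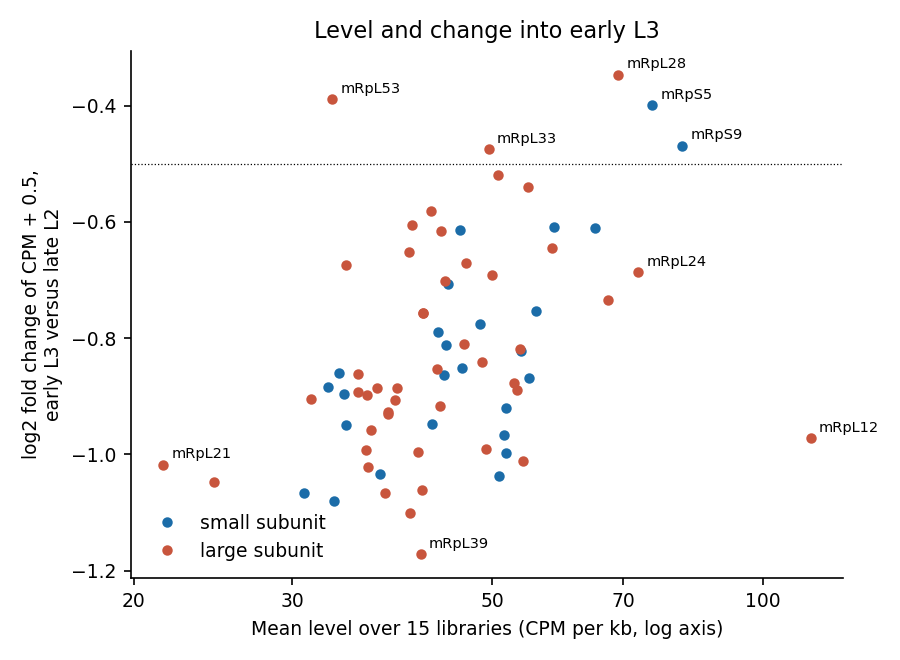
Mean level over the 15 libraries in CPM per kilobase of transcript (x, log axis) against the log2 fold change of CPM + 0.5 from late L2 to early L3 (y) for small (blue) and large (red) subunit members; the dotted line marks -0.5. Members of higher level lie higher (Spearman's rho = 0.441, n = 73), with mRpL12 at 113 CPM per kb and -0.97 as an exception.

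The subunits were compared within each library. The mean log2 level of the large subunit minus that of the small subunit was -0.11 ± 0.01, -0.11 ± 0.02 and -0.10 ± 0.01 over the 3 stages in order (SD, n = 5). These groups overlapped. The ratio of the summed CPM, which gives most weight to the most abundant members, was 1.59 ± 0.01, 1.58 ± 0.01 and 1.52 ± 0.02 (SD, n = 5). In early L3 it ran from 1.51 to 1.54, below the 1.56 to 1.59 of late L2. Without mRpS5 and mRpS9, a choice made after their values were seen, it was 1.94 ± 0.02, 1.91 ± 0.03 and 1.95 ± 0.03 in stage order (SD, n = 5). Late L2 and early L3 then overlapped. Leaving out small subunit members with small falls raises the early L3 ratio by construction, so this overlap is not a separate result. The genes mRpS5 and mRpS9 made up 17.4% of the small subunit sum in late L2 and 21.9% in early L3. Neither measure is per length, so only its change between stages can be read.

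Members of bacterial type and all other members were counted apart. Of the 43 members of bacterial type, a class taken from mammalian ribosome structures, 39 fell into early L3 and the median was -0.86. Of the 30 others, 29 fell and the median was -0.87. Most of these are known only from mitochondria, but mRpS18A and mRpS18B, relatives of bacterial S18, are among them. Structural work in mammals places mRpS30 and mRpS18A in the large subunit. With this assignment 22 of 24 small and 46 of 49 large subunit members fell.

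Members with known places in the ribosome showed the following changes into early L3. Of the stalk, which binds the translation factors, mRpL10 had a log2 fold change of -0.70, mRpL11 one of -1.05 and mRpL12 one of -0.97, and all 3 fell. Around the exit of the tunnel in bacterial ribosomes lie the counterparts of mRpL22 (-0.65), mRpL23 (-0.82), mRpL24 (-0.69) and mRpL47 (-0.92), which fell as well. In mammals mRpL45 lies there too and holds the ribosome to the inner membrane, and the fly gene fell by 0.81 on the log2 scale. The GTP-binding small subunit protein mRpS29, known as DAP3 in mammals, fell by 0.90, and mRpL44, related to RNase III, fell by 0.85.

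Replicates varied together. The median SD of log2 levels within a stage was 0.127, 0.151 and 0.185 in stage order, beside 0.109, 0.102 and 0.111 for 4161 other entries in the same range of levels. After subtracting the mean of all members in each library it was 0.059, 0.055 and 0.074. Early L3 replicate 2 had the lowest and late L2 replicate 2 the highest sum of members. Differences between replicates therefore lay mostly in the level of the whole set.

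Overlapping genes could share reads, since the sources used here do not say whether strand was used in counting. Of the 73 members 42 overlap a gene on the other strand, 3 overlap one on the same strand and 30 overlap none. The medians into early L3 were -0.86 for those with a gene on the other strand and -0.87 for those with no overlapping gene. Of the 40 opposite partners tested, 11 fell, 1 rose and 28 were not called, with a median of -0.22. The small change of mRpL28 stood opposite Gmd (0.09, not called) and that of mRpL53 opposite AGO1 (0.05, not called). That of mRpS9 stood opposite wtrw (0.55), the partner that rose, and ArgRS-m (-0.53), which fell. The gene mRpL9 lies opposite Fkbp39, which fell by 1.69 on the log2 scale. The part of overlapping reads in these values was not tested.

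A pair of small subunit proteins have other symbols and were not counted with the members. The gene tko encodes the counterpart of bacterial S12, which takes part in decoding, and its level was 56.5 ± 5.0 CPM in late L2 and 29.8 ± 4.8 CPM in early L3 (SD, n = 5), a log2 fold change of -0.92. The gene bonsai encodes the counterpart of S15, and its level was 71.7 ± 10.1 and 41.7 ± 5.4 CPM (SD, n = 5), a change of -0.77. Both fell, and neither was called during L2 (0.18 and 0.11).

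The other parts of mitochondrial gene expression fell in part over the same interval. Of 15 translation and assembly factors 11 fell, and their list had a median of -0.71. Examples are mEFG1, an elongation factor (94.2, 92.3 and 40.5 CPM in the 3 stages, -1.18), and Rlb1 (-1.11). The gene Rlb1 overlaps the member mRpL47 on the other strand, and the part of shared reads in its value was not tested. Of 15 mitochondrial aminoacyl-tRNA synthetases, which load transfer RNAs, 12 fell and the median was -0.60, among them IleRS-m (-1.20) and AsnRS-m (-0.70). Under the other scalings this count was 7 with TMM, 6 with median-ratio scaling and 2 with quantile normalization. Of 9 genes for the upkeep and transcription of mitochondrial DNA 5 fell, with a median of -0.68, among them the replicative helicase mtDNA-helicase (-1.45) and the RNA polymerase PolrMT (-1.37). Of 14 genes of protein import and folding, through which ribosomal proteins enter the organelle, 13 fell and the median was -0.90, among them Tom40 (-1.11) and Tom20 (-0.91). With the 3 other scalings, 7 to 8 of the translation and assembly factors, 5 of the mitochondrial DNA genes and 11 of the import and folding genes fell. None of these genes was called during L2.

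The respiratory chain, whose mitochondrially encoded parts this ribosome makes, had smaller changes. Of 69 nuclear-encoded subunits tested none was called into early L3, and the median was -0.21, with ND-30 at -0.30 and ND-ACP at -0.36. In that limma comparison 56 were lower at an adjusted p below 0.05 with no minimum fold, and with median-ratio scaling the median was -0.06. With quantile normalization 1 of these subunits and 2 of the transcripts of mitochondrial DNA were called lower. Of 11 transcripts of mitochondrial DNA none was called, the median was -0.34, and 10 had an adjusted p under 0.05, with mt:Cyt-b at -0.40 and mt:CoII at -0.35. This median was -0.21 with TMM and -0.19 with median-ratio scaling. The lists were not tested against the members.

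Of 87 entries for proteins of the cytosolic ribosome 36 fell, with a median of -0.49. The count was 6 with TMM or median-ratio scaling and 40 with quantile normalization, and the median of the list lies near the minimum fold. RpL24 had a change of -0.58. The changes of the list reached -1.76. It holds entries such as RpL7-like (-1.36), taken in by their symbol and not known as parts of the finished ribosome. Of 5 regulators, srl, the fly PGC-1 homolog, went from 84.0 ± 14.5 to 27.3 ± 6.6 CPM (SD, n = 5) and Myc, which drives ribosome production, from 154 ± 12 to 50.7 ± 17.0 CPM (SD, n = 5). Both fell, by 1.62 and 1.65 on the log2 scale. Ets97D (-0.35), ewg (0.03) and ERR (0.01) were not called.

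**Figure D5:**
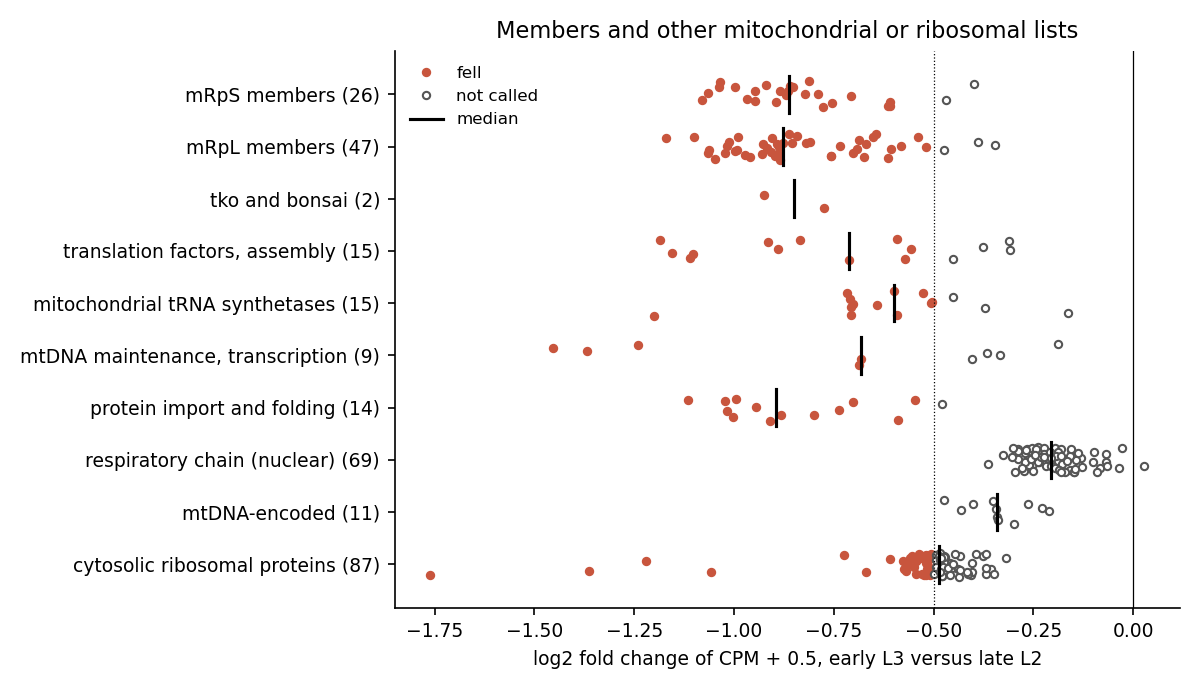
Log2 fold change of CPM + 0.5 from late L2 to early L3 (x) for the small and large subunit members and for other mitochondrial or ribosomal lists, with the number of entries tested in parentheses. Filled points fell, open points were not called and black lines are medians; the medians are -0.86 and -0.88 for the members and -0.21 for the nuclear-encoded respiratory chain subunits, with none of the latter called.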

How the data were processed

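RNA of 15 midgut samples was sequenced with a stranded kit. Build BDGP6 and, as tools, STAR 2.7.10a, Salmon 1.5.2, Trim Galore 0.6.7, DESeq2, Picard, MultiQC 1.11 and FastQC are listed by the submitters' processing notes. Their roles, the annotation release and the strand setting of the counting are not given in the sources used here. The authors deposited CPM for 12133 entries. Divided by the value of 1 read, 100% of 166854 non-zero values came out whole (tolerance 0.001), giving totals of 23981806 to 33902298 reads. A second table holds the authors' own fold changes and adjusted p-values and was not used. Spike-ins were not analysed here.

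The 9787 entries that reached 0.5 CPM in 1 library or more were fitted with limma 3.58.1 in R 4.3.3 on log2(CPM + 0.5), with an intensity trend and no replicate block, over all 15 libraries. The pseudocount understates changes of low entries. Adjustment was by Benjamini-Hochberg over all kept entries within each comparison. Exact permutation tests were 2-sided. Replicates were called biological by the study. Symbols of the entries came from the expression table. Positions, lengths and the names of overlapping genes came from the Ensembl 115 annotation of BDGP6.54. The test was checked on simulated data in which each entry varied on its own. The members varied together, so that check does not cover shifts shared within a library.

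The members and lists were chosen with earlier results of these data known. Values in every library are given for the 6 largest changes per comparison among called members, the 2 highest and 2 lowest levels per kb in each subunit and, chosen after the values were seen, the 5 members not called. From each other list, genes with the 2 smallest adjusted p-values are named. Alternatives were pseudocounts of 0.1 and 4, other filters, TMM, median-ratio and quantile scaling, minimum log2 fold changes of 0 and 1, a replicate block, edgeR 4.0.16 and DESeq2 1.42.0 on the whole reads, the structural naming of subunits, and each library left out in turn.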

Additional observations from a re-analysis of the deposited data

Results flagged for a closer look

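The ratio of the large to the small subunit summed CPM was 1.61 in early L2 replicate 4, while the other early L2 libraries lay at 1.59. By the gap to its nearest neighbour over the range of its group, it was the only library past Dixon's 95% critical value among 69 groups of 5 libraries (the levels of named members and sums over members, in each stage), where chance alone gives about 1 in 20 groups. On the first principal component, which is not among them, the largest such gap was 0.58, below that value. The ratio is a sum over members and is not per length.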

How the results depend on the processing

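Of the results recomputed, 1 changed direction: the change of mRpL33 over the whole span, -0.20 in CPM, was 0.0493 with quantile normalization. With a minimum log2 fold change of 0, 1 large subunit member was called during L2, beside 13.8% of all entries higher and 12.8% lower. With a minimum of 1, 4 small and 8 large subunit members fell into early L3, and 2 and 4 over the whole span. At that minimum 22 members differed between the intervals. Shares of all entries at a minimum of 1 were not counted, so these counts cannot be set beside them. With quantile normalization the median of the small subunit into early L3 was -0.68. With mRpS30 and mRpS18A counted in the large subunit, the large minus small mean log2 level was -0.0383, -0.0290 and -0.0231 over the stages in order. With a library left out, 66 to 70 members fell into early L3, beside 1668 to 1986 of all entries called lower. The same-numbered replicates did not pair (r from -0.18 to 0.21 over 15 pairs, 3 libraries closest to their own number). With a replicate block 0, 68 and 62 members were called during L2, into early L3 and over the span, as without it. Of all 9787 entries, 649, 1836 and 2389 were then called lower and 343, 629 and 963 higher. Depth did not limit the members, which all passed the filter.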
